A study of Mus musculus with 6 samples.

Results

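The Bcl2 family genes described here are 10 survival and death genes, Bcl2, Bcl2l1, Mcl1, Bax, Bak1, Bcl2l11, Bbc3, Pmaip1, Bid and Bad, taken by symbol from a raw count table of 43074 gene symbols. All 10 were in the table, and all 10 passed the filter on low counts that left 17433 genes for testing. The libraries came from wild-type C2C12, a mouse myoblast line that exits the cell cycle and fuses into myotubes when growth serum is withdrawn. There were 3 groups of 2 libraries each. Day 0 cells were untreated, and the other 2 groups differentiated for 4 days in horse serum medium, 1 with DMSO and 1 with 4-phenylbutyric acid (4-PBA) at 1 mM. The drug, an aromatic fatty acid, is used as a chemical chaperone and also inhibits histone deacetylases. The labels do not say whether the 4-PBA medium also held DMSO or whether replicates were separate cultures. DMSO day 4 cells differed from day 0 cells in medium, time in culture and DMSO at once, so these cannot be told apart. Cell death itself is not among the measurements analysed here. The p-values measure the spread between these libraries of 1 cell line, which may be technical.

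Bcl2 family proteins control whether the outer mitochondrial membrane is opened during apoptosis. Survival proteins (Bcl-2, Bcl-xL from Bcl2l1, and Mcl-1) bind and restrain the pore-forming effectors Bax and Bak. BH3-only proteins, among them Bim from Bcl2l11, Puma from Bbc3, Noxa from Pmaip1, Bid and Bad, carry stress signals by occupying the survival proteins or activating the effectors. A fraction of cultured myoblasts dies while the rest differentiate, so the family is of long-standing interest in this line. Much of its control is exerted on protein binding, cleavage, phosphorylation and turnover, and the values below are RNA only.

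Total counts ranged from 47908926 to 74697397 per library. The summed expression of 5 myotube markers (Myog, Mymk, Myh3, Ckm and Tnnt3) was 48.6 to 51.6 CPM (counts relative to the TMM-scaled library size) at day 0 and 3145 to 3407 CPM at day 4. That of 5 cycling markers (Mki67, Top2a, Ccnb1, Cdk1 and Ccna2) fell from a range of 1592 to 1632 CPM to one of 425 to 542 CPM. The myoblast markers Myod1, Myf5, Des and Cdh15 summed to at least 1314 CPM in each library. Des supplied most of that sum and rose with DMSO (log2 fold change 1.33), as did Cdh15 (0.92) and Myod1 (0.22), while Myf5 fell (-1.14). The reserve cell markers Pax7, Cd34 and Spry1 summed to 39.2 and 39.9 CPM at day 0 and to 73.3 to 80.4 CPM at day 4. Ptprc, Pecam1, Epcam and Adipoq, which mark leukocytes, endothelium, epithelium and adipocytes, together reached at most 0.556 CPM. Day 4 cultures mix myotubes with unfused cells, and in bulk RNA fewer cells of a type cannot be told apart from less RNA per cell.

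With DMSO, differentiation was accompanied by a change in 9 of the 10 genes. The quasi-likelihood test of edgeR called 5 members higher and 4 lower at day 4 than at day 0, at a p-value under 0.05 after Benjamini-Hochberg adjustment for all 17433 genes. Of those genes 66.3% were called, 33.8% higher and 32.6% lower, so changes were common across the transcriptome. The DMSO and day 0 libraries did not overlap for any of the 10 members, against 81.9% of all tested genes. The median log2 fold change was 0.055 over the members and 0.023 over all tested genes, and the median absolute log2 fold change was 0.48 over each. The directions followed no single side of the family. The BH3-only genes Pmaip1, Bbc3 and Bcl2l11 and the survival genes Bcl2 and Mcl1 rose, while the effectors Bax and Bak1 and the BH3-only genes Bid and Bad fell.

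**Figure D1:**
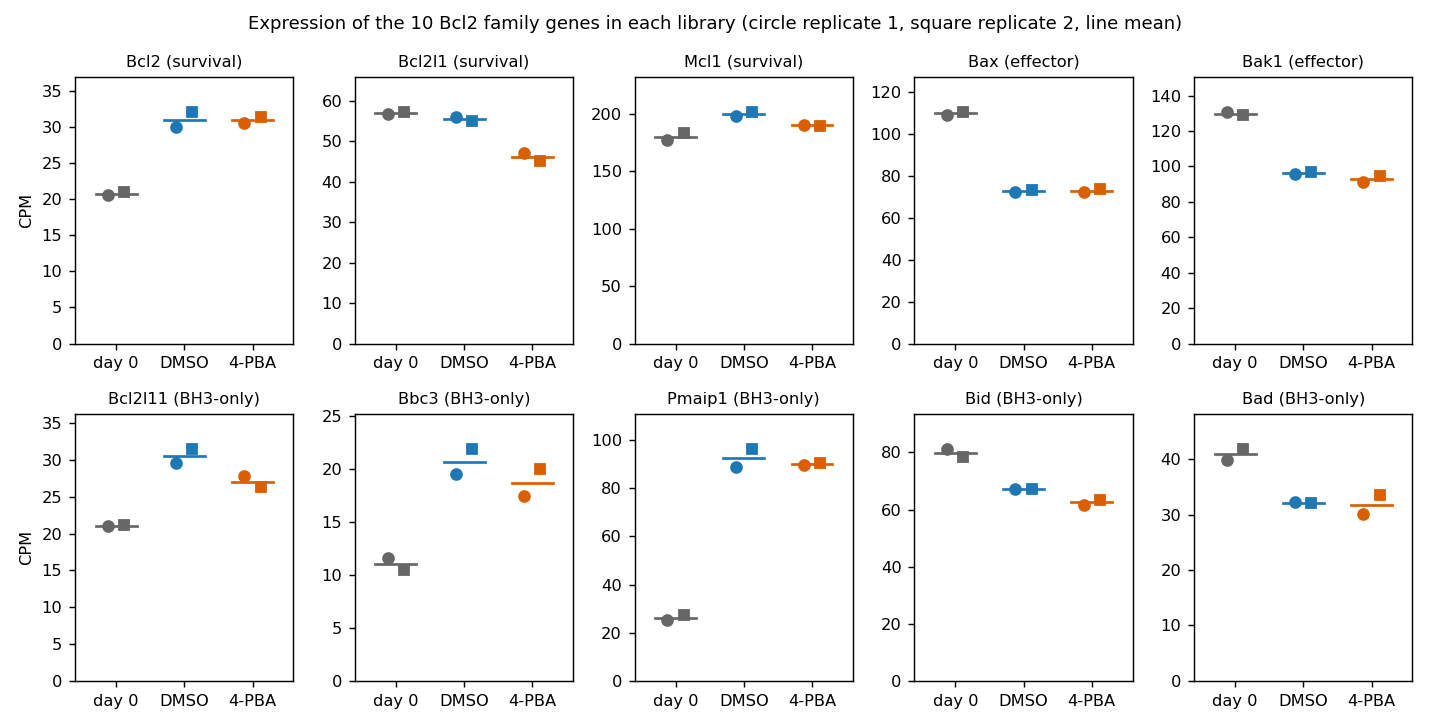
CPM after TMM scaling (vertical axes, each from 0) of the 10 genes in each of the 6 libraries, with replicates 1 and 2 as circles and squares and the group mean as a line. Pmaip1, Bbc3, Bcl2l11 and Bcl2 stand higher at day 4, Bax and Bak1 stand lower, and Bcl2l1 stands lower in both 4-PBA libraries than in the other 4.

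Among the survival genes, Bcl2, the founding member and restrainer of Bax and Bim, had 20.6 and 21.0 CPM in the 2 libraries of day 0, 30.0 and 32.1 in the DMSO libraries, and 30.5 and 31.5 in the 4-PBA libraries. Both day 0 libraries were below all 4 day 4 libraries. The rise with DMSO was 1.49-fold (log2 fold change 0.58, SE 0.0627, edgeR adjusted p 4.22e-10). Mcl1, which encodes a short-lived survival protein, had 177 and 183 CPM in the 2 libraries of day 0, 198 and 202 in the DMSO libraries, and 191 and 190.0 in the 4-PBA libraries. All day 4 libraries lay above day 0 here too, but by little: the rise with DMSO was 1.11-fold (log2 fold change 0.15, SE 0.0324, edgeR adjusted p 1.23e-04).

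Bcl2l1, whose main product Bcl-xL restrains Bax and Bak, stood at 56.9 and 57.3 CPM at day 0 and 56.1 and 55.1 CPM with DMSO. It was the 1 member not called between these groups (log2 fold change -0.039, 95% interval -0.13 to 0.055, edgeR adjusted p 0.478), although both DMSO libraries lay below both day 0 libraries. With 4-PBA it stood at 47.1 and 45.2 CPM, lower than in any other library. Gene counts do not separate the long survival form from the short death-promoting splice form of Bcl2l1, and the same holds for the other spliced members.

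The upstream sequences of Bcl2l1, Mcl1 and Bbc3 are shown because the study's title names NF-κB. A loose pattern for NF-κB sites (GGG, any 2 bases, TTTCC) occurs upstream of these members. Any base may fill those 2 positions, so a match need not be an NF-κB site. Windows of 250 bases upstream of the annotated starts were taken from RefSeq on GRCm38.p6, and 9 of the 10 members had 15 windows in all; Pmaip1 had no entry. The NF-κB pattern was searched on both strands and matched 1 window each of Bcl2l1, Mcl1 and Bbc3, or 3 of 9 genes. Over all 27025 symbols with a window, 1.65% had a match, and over all 32851 windows, 1.41%. The Egr1 motif GCGTGGGCG matched no member window and 0.622% of all symbols, and the TATA box TATAAA no member window and 14.3% of all symbols. The E-box CANNTG, bound by MyoD-type factors, matched windows of 5 of the 9 members and 69.3% of all symbols. These 4 motifs were chosen after the expression values had been seen, and the members printed were picked because they hold the first of them, so their share among the members is no test. Nor were the shares matched for base composition or for the number of windows per gene. The matched windows of Bcl2l1, Mcl1 and Bbc3 held 11, 26 and 27 CG dinucleotides, against a median of 6 over all windows. Each sequence is written 5′ to 3′ on the gene's strand, and capitals mark the match to the NF-κB pattern.
Bcl2l1, farthest upstream start, no match, chr2:152831729-152831978, minus strand: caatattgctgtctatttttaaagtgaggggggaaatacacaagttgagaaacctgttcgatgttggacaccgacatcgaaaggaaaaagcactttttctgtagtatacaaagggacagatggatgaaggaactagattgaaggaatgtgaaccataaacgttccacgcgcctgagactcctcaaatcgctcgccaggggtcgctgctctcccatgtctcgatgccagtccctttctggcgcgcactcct
Bcl2l1, match and 10 bases on each side, upstream of an internal start, chr2:152830916-152830945, minus strand: tacgcctctcGGAAAAACCCgggagtggtc
Mcl1, chr3:95658471-95658720, plus strand: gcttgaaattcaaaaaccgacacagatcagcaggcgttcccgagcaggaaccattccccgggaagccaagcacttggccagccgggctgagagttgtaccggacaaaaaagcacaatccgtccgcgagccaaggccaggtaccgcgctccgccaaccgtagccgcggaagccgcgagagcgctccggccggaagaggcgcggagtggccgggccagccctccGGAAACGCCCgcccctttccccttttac
Bbc3, first of 3 starts, chr7:16309333-16309582, plus strand: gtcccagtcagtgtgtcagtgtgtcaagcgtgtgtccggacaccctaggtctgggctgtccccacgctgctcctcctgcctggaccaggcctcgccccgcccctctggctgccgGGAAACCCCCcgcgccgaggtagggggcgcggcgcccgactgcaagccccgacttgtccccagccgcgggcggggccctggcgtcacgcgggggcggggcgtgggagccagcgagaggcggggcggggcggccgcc
The match began 28 bases upstream of the Mcl1 start and 136 bases upstream of the Bbc3 start. In Bcl2l1 it began 218 bases upstream of its start. That window held 250 bases of annotated exon in GENCODE M21, counted over genes of both strands, and which transcript the exon belongs to was not recorded. A match of letters is a description of these windows and no measure of binding.

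Both effectors, the genes of the pore-forming proteins, fell during differentiation. Bax had 109 and 110.5 CPM in the 2 libraries of day 0, 72.3 and 73.3 in the DMSO libraries, and 72.4 and 73.5 in the 4-PBA libraries. The day 4 libraries of the 2 treatments interleaved and lay far below day 0. The fall with DMSO was to 0.663 of the day 0 level (log2 fold change -0.59, SE 0.0388, edgeR adjusted p 1.03e-15). Bak1 had 131 and 129 CPM in the 2 libraries of day 0, 95.5 and 97.1 in the DMSO libraries, and 91.2 and 94.6 in the 4-PBA libraries. Its fall with DMSO was to 0.742 of the day 0 level (log2 fold change -0.43, SE 0.0366, edgeR adjusted p 1.07e-12). Exons of Bak1 overlap Ggnbp1 on the opposite strand over 25.5% of their length in GENCODE M21, and 192 bases of Bax exons overlap Gm45808 on the same strand. How far these overlaps affect the counts was not measured.

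The BH3-only genes divided. Pmaip1, whose product Noxa binds Mcl-1 with preference, had the largest change of the 10. It had 25.2 and 27.3 CPM in the 2 libraries of day 0, 88.6 and 96.1 in the DMSO libraries, and 89.7 and 90.4 in the 4-PBA libraries. The 3.51-fold rise with DMSO (log2 fold change 1.81, SE 0.0492, edgeR adjusted p 1.67e-26) was far larger than the spread between replicates.

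Bbc3, whose product Puma binds all the main survival proteins, had 11.6 and 10.5 CPM in the 2 libraries of day 0, 19.5 and 21.8 in the DMSO libraries, and 17.4 and 20.0 in the 4-PBA libraries. Its rise with DMSO was 1.88-fold (log2 fold change 0.91, SE 0.0848, edgeR adjusted p 2.09e-11). Bcl2l11, the gene of the promiscuous activator Bim, had 21.0 and 21.2 CPM in the 2 libraries of day 0, 29.6 and 31.4 in the DMSO libraries, and 27.9 and 26.3 in the 4-PBA libraries. It rose 1.45-fold with DMSO (log2 fold change 0.53, SE 0.0637, edgeR adjusted p 3.59e-09). For these 3 genes each day 4 library lay above each day 0 library.

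Bid, which links death receptors to mitochondria once caspase-8 has cut it, had 81.1 and 78.3 CPM in the 2 libraries of day 0, 67.1 and 67.0 in the DMSO libraries, and 61.5 and 63.5 in the 4-PBA libraries. It fell with DMSO (log2 fold change -0.25, SE 0.0422, edgeR adjusted p 3.47e-06). Bad, which is held inactive by survival-factor phosphorylation, had 39.9 and 41.8 CPM in the 2 libraries of day 0, 32.3 and 32.0 in the DMSO libraries, and 30.1 and 33.5 in the 4-PBA libraries. It also fell with DMSO (log2 fold change -0.35, SE 0.0575, edgeR adjusted p 2.13e-06). Exons of Bid overlap Bcl2l13 and those of Bad overlap Gpr137, each on the opposite strand, over 17.7% and 20.5% of their length, and those of Bcl2 overlap D630008O14Rik over 6.09%. Whether the counting used strand is not given in the sources used here, which limits how far these values can be trusted.

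**Figure D2:**
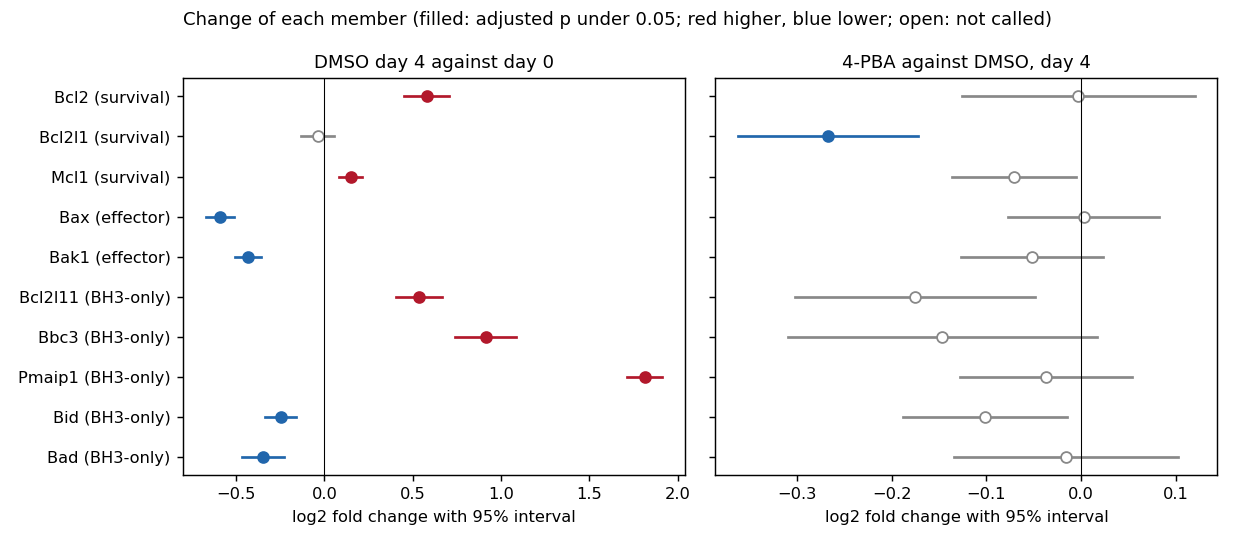
Log2 fold change (horizontal axis) of each gene between DMSO day 4 and day 0 (left) and between 4-PBA and DMSO at day 4 (right, on a narrower scale), with 95% intervals that are not adjusted for the number of genes. Filled points have an adjusted p-value under 0.05: 9 of 10 on the left and Bcl2l1 alone on the right.

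Levels were compared between genes as CPM per kilobase of annotated exon. At day 0 the effectors led, with Bax at 69.2 and 70.1 CPM per kilobase and Bak1 at 54.3 and 53.6. Mcl1, at 51.8 and 53.6 CPM per kilobase, was not separated from Bak1 at day 0. Bid followed at 22.9 and 22.1, Bad at 15.6 and 16.3, Bcl2l1 at 12.4 and 12.5, Pmaip1 at 9.21 and 9.98 and Bbc3 at 5.44 and 4.92 CPM per kilobase. Bcl2l11 (2.62 and 2.64) and Bcl2 (2.25 and 2.29) had the lowest levels per kilobase. With DMSO, Mcl1 moved to 58.0 and 59.1 CPM per kilobase, above Bax at 45.9 and 46.5, and Pmaip1 moved to 32.4 and 35.2, next below Bak1 at 39.7 and 40.3. Exon length decides some of these neighbours: per kilobase of the longest coding transcript, Bax (65.8 and 66.7) stood above Mcl1 (58.0 and 59.1) with DMSO as well.

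The counts of a survival gene relative to a death gene within 1 library do not depend on scaling between libraries. Per 100 counts of Bax there were 18.9 and 19.0 counts of Bcl2 at day 0, 41.4 and 43.8 in the DMSO libraries, and 42.2 and 42.8 in the 4-PBA libraries. Bcl2l1 had 52.1 and 51.9 counts per 100 of Bax at day 0, 77.5 and 75.2 in the DMSO libraries, and 65.1 and 61.5 in the 4-PBA libraries. Relative to Bax, then, all day 4 libraries held more Bcl2 and Bcl2l1 RNA than day 0, and the 4-PBA libraries held less Bcl2l1 than the DMSO libraries. Relative to Pmaip1 the order of day 0 and day 4 was the opposite, and Bcl2l1 was again lower with 4-PBA than with DMSO. Mcl1 had 704 and 673 counts per 100 of Pmaip1 at day 0, 224 and 210.04 in the DMSO libraries, and 213 and 210.2 in the 4-PBA libraries. Bcl2l1 had 226 and 210.2 per 100 of Pmaip1 at day 0, 63.3 and 57.3 in the DMSO libraries, and 52.5 and 50.04 in the 4-PBA libraries. Bax and Pmaip1 had the largest fall and rise of the members, and other denominators differed. Per 100 of Bcl2l11, Bcl2 had 98.0 and 99.1 counts at day 0 and 101 and 102 with DMSO. Per 100 of Bbc3, Bcl2l1 overlapped between DMSO (288 and 253) and 4-PBA (271 and 227). Relative to each other death gene, both 4-PBA libraries held less Bcl2l1 than both DMSO libraries. With 2 libraries against 2, an exact two-sided permutation test of such a ratio cannot give a p under 0.333, so the ratios are given as values.

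**Figure D3:**
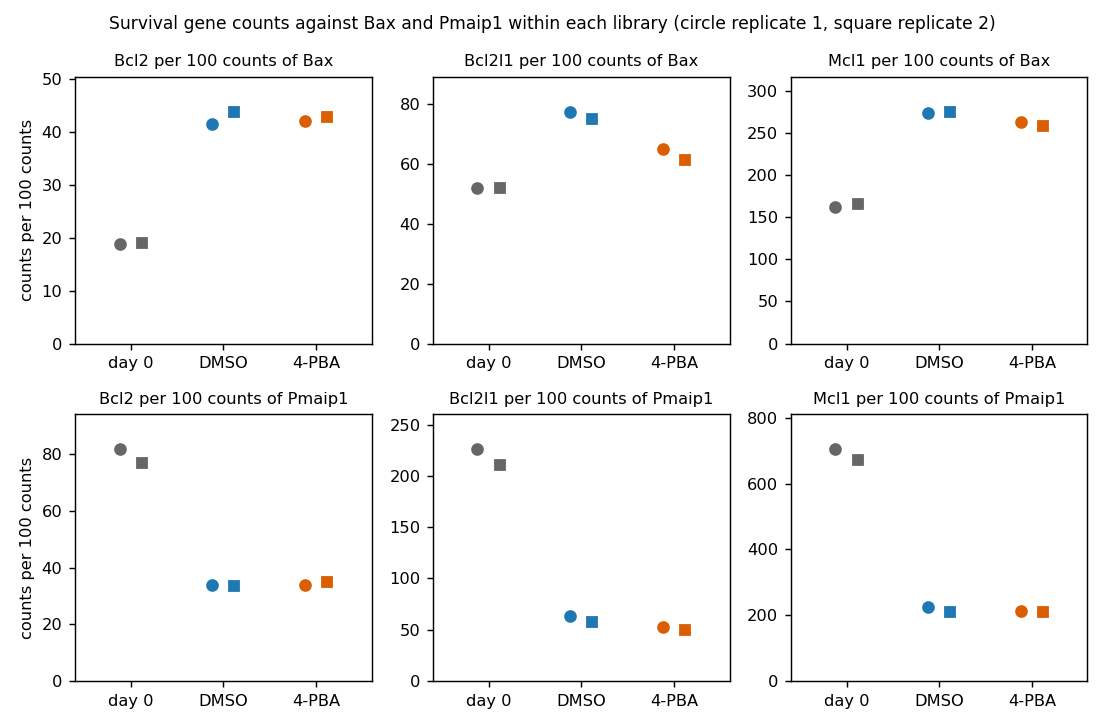
Counts of Bcl2, Bcl2l1 and Mcl1 per 100 counts of Bax (top row) and of Pmaip1 (bottom row) in each library, on vertical axes from 0, with circles and squares for replicates 1 and 2. The 3 ratios to Bax are higher at day 4 and the 3 ratios to Pmaip1 are lower, and with 4-PBA the Bcl2l1 ratios (61.5 and 65.1 per 100 of Bax) lie below those with DMSO.

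Summed by role, the 3 survival genes took 255 and 262 CPM in the 2 libraries of day 0, 284 and 289 in the DMSO libraries, and 268 and 267 in the 4-PBA libraries. The 2 effectors took 240 and 239 CPM in the 2 libraries of day 0, 168 and 170.4 in the DMSO libraries, and 164 and 168 in the 4-PBA libraries. The 5 BH3-only genes took 179 CPM in each day 0 library, 237 and 248 in the DMSO libraries, and 227 and 234 in the 4-PBA libraries. The survival and BH3-only sums were lower in both 4-PBA libraries than in both DMSO libraries, while the effector sums overlapped between the treatments. Bcl2l1 and Mcl1 supplied the lower survival sum, since Bcl2 overlapped between the treatments.

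Between 4-PBA and DMSO at day 4 the family changed little, with 1 exception. Bcl2l1 fell by 16.9% with 4-PBA (log2 fold change -0.27, SE 0.0466, 95% interval -0.36 to -0.17, edgeR adjusted p 3.13e-04), and both 4-PBA libraries lay below both DMSO libraries. It was the only 1 of the 10 members called, against 4.90% of all tested genes, and leaving out single libraries moved its log2 fold change between -0.30 and -0.24. No member was called higher by edgeR, DESeq2 or limma-voom, each of which called Bcl2l1 alone, and edgeR called 2.13% of all tested genes higher. At an unadjusted p under 0.05, 4 members passed, each lower with 4-PBA, against 16.7% of all tested genes. The median log2 fold change was -0.061 over the members and 0.0021 over all tested genes. Of all tested genes, 11.9% had a log2 fold change at least as negative as that of Bcl2l1.

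The other 3 genes with an unadjusted p under 0.05 were Bcl2l11, Bid and Mcl1, and none passed the adjusted threshold. Bcl2l11 had a log2 fold change of -0.18 (SE 0.0621, edgeR adjusted p 0.102), with 27.9 and 26.3 CPM with 4-PBA against 29.6 and 31.4 CPM with DMSO. Its call depended on 1 library: a fit that left out DMSO replicate 1 gave -0.22 with an adjusted p of 0.0473, and over the alternatives the adjusted p ranged up to 0.552. Bid stood at -0.10 (SE 0.0426, edgeR adjusted p 0.194) and Mcl1 at -0.071 (SE 0.0323, edgeR adjusted p 0.248). Both 4-PBA libraries lay below both DMSO libraries for these 3 genes, for Bcl2l1 and for Bak1 (log2 fold change -0.052, edgeR adjusted p 0.542), which makes 5 of 10 members without overlap against 45.5% of all tested genes.

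For the remaining members the intervals give differences compatible with the spread between these libraries, which may be technical. They are not adjusted for the number of genes and may not cover variation between cultures. The 95% interval of the log2 fold change was -0.13 to 0.12 for Bcl2, -0.077 to 0.083 for Bax, -0.13 to 0.054 for Pmaip1, -0.13 to 0.10 for Bad and -0.31 to 0.017 for Bbc3. Their libraries overlapped between the treatments. The signs of the values nearest 0 rested on single libraries. Leaving out DMSO replicate 2 gave 0.050 for Bcl2 and 0.025 for Pmaip1. Leaving out 4-PBA replicate 1 gave 0.019 for Bcl2 and 0.061 for Bad. Bax stood at -0.0081 without DMSO replicate 1 and -0.0082 without 4-PBA replicate 2. The number of members with a negative value was 9 with all libraries, 8 with scaling by library size only, and between 7 and 10 with 1 library left out.

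Of the 5 cycling markers 1 was called between the treatments. Their sum was 501 and 425 CPM in the DMSO libraries and 530 and 542 CPM in the 4-PBA libraries, and the called gene was Ccna2, higher with 4-PBA (log2 fold change 0.21, edgeR adjusted p 0.0320). The other 4 had log2 fold changes of 0.17 to 0.25 and edgeR adjusted p-values of 0.163 to 0.502. The myotube marker sums overlapped, at 3145 and 3407 CPM in the DMSO libraries and 3173 and 3247 CPM in the 4-PBA libraries, and Mymk was called lower (log2 fold change -0.17, edgeR adjusted p 0.0134). The other 4 myotube markers were not called, with Myog and Myh3 at 0.0052 and 0.018 and Ckm and Tnnt3 at -0.17 and -0.12 on the log2 scale. Of the myoblast markers, Des was lower (log2 fold change -0.11, edgeR adjusted p 0.00881) and Cdh15 higher (0.11, 0.0171) with 4-PBA. Myod1 and Myf5 were not called (log2 fold changes -0.045 and 0.061). The reserve cell markers were not called either, with Cd34 at 0.12, Pax7 at 0.21 and Spry1 at -0.21 on the log2 scale. The part of culture composition in the fall of Bcl2l1 was not tested.

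Against day 0, all 10 members were called with 4-PBA, 5 higher and 5 lower. Of all tested genes 65.6% were called, 33.2% higher and 32.4% lower. No member overlapped between these groups, against 81.8% of all tested genes without overlap. The comparison shares its libraries with the other 2 comparisons, so its values are given beside theirs. For Pmaip1 the log2 fold change against day 0 was 1.78 with 4-PBA and 1.81 with DMSO, for Bbc3 0.77 and 0.91, for Bcl2l11 0.36 and 0.53, and for Bcl2 0.58 with each. For Bax it was -0.59 with each treatment, and for Bak1 it was -0.48 with 4-PBA and -0.43 with DMSO. Bcl2l1 was called lower than day 0 with 4-PBA (log2 fold change -0.31, SE 0.0469, edgeR adjusted p 5.99e-07). Mcl1 was called higher than day 0 with 4-PBA by the smallest margin (log2 fold change 0.078, edgeR adjusted p 0.0336). That call was lost with library size only (adjusted p 0.0976), without a count filter (0.0557) and with DESeq2 (0.0747). It was also lost without day 0 replicate 1 (adjusted p 0.320), 4-PBA replicate 1 (0.119) or 4-PBA replicate 2 (0.115).

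Of 15 further Bcl2 family genes, 9 passed the count filter. The survival genes Bcl2a1a, Bcl2a1b, Bcl2a1d and Bcl2l10, the BH3-only gene Hrk and Bcl2l14 had at most 7 counts in any library and were not tested. Between DMSO and day 0, 3 of the 9 rose and 3 fell, and these 66.7% compare with 66.3% of all tested genes, a share near the background. Bmf, a BH3-only gene, rose from 1.42 and 1.62 to 5.31 and 6.38 CPM (log2 fold change 1.93, SE 0.157, edgeR adjusted p 3.38e-13). The survival gene Bcl2l2 rose (log2 fold change 0.48, SE 0.047) and so did Bcl2l13 (0.19, SE 0.0429), a mitochondrial family member. Exons of Bcl2l2 overlap Gm20521 on the same strand, and those of Bcl2l13 overlap Bid on the opposite strand over 6.91% of their length. Bok, an effector-like gene, fell from 86.7 and 89.1 to 58.4 and 54.3 CPM (log2 fold change -0.64, SE 0.0456, edgeR adjusted p 9.05e-15), and Bnip3l, a mitophagy receptor, fell by 0.24 on the log2 scale (SE 0.0351). Bcl2l12 was the third that fell (log2 fold change -0.19, SE 0.0805, edgeR adjusted p 0.0376). Its call was lost with the DESeq2 test (adjusted p 0.0693), with no filter beyond 1 count (0.0592), and without either day 0 library or either DMSO library (0.0627 to 0.173). Exons of Bcl2l12 overlap Gm15545 and Irf3 on the opposite strand over 33.4% of their length.

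With 4-PBA, Bok was the 1 gene of these 9 that was called, against 4.90% of all tested genes called and 2.13% called higher. It was higher, at 61.4 and 65.9 CPM (log2 fold change 0.18, SE 0.0461, edgeR adjusted p 0.0171). The call was lost without DMSO replicate 2 (adjusted p 0.137) or 4-PBA replicate 2 (adjusted p 0.352), where the log2 fold change was 0.13 in each case.

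**Figure D4:**
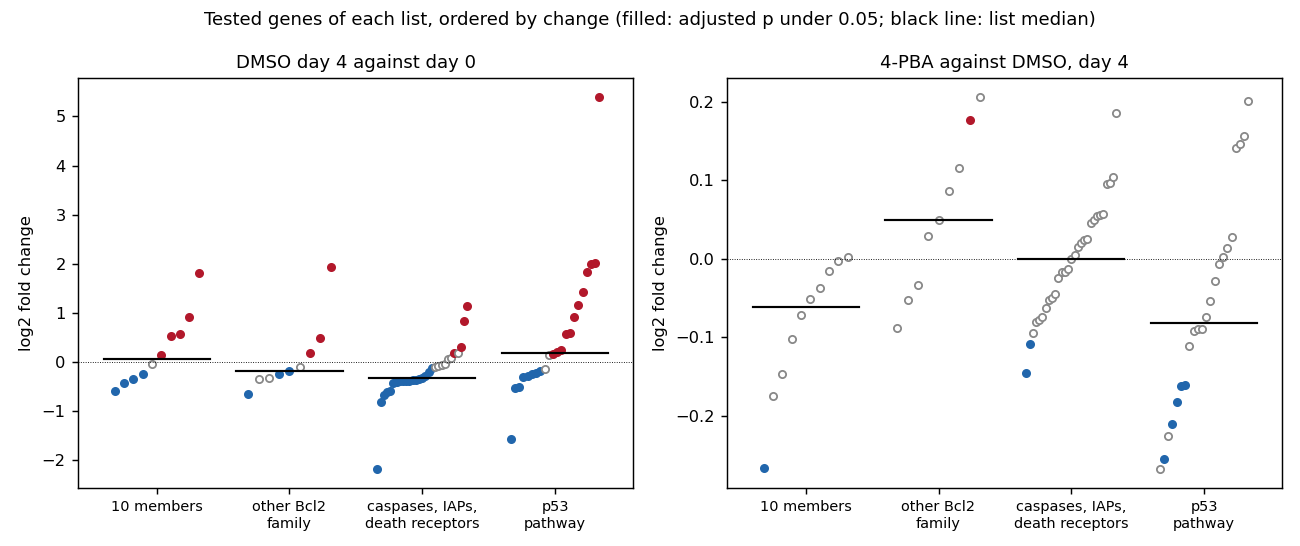
Log2 fold change (vertical axes, on different scales) of each tested gene of the 4 lists, ordered within a list, between DMSO day 4 and day 0 (left) and between 4-PBA and DMSO (right); filled points have an adjusted p-value under 0.05 and black lines are list medians. On the left most genes of the caspase list lie below 0, and on the right the 5 called genes of the p53 list lie below 0.

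Outside the family, 29 of 32 genes for the apoptosome, caspases, inhibitors of apoptosis (IAPs), mitochondrial factors and death receptors were tested. Some of them act after the family and others, such as the death receptors, before or beside it. Between DMSO and day 0, 18 fell and 4 rose, and 22 of 29 called compares with 66.3% of all genes. The list median was -0.33 against 0.023 over all tested genes. Cycs, the gene of cytochrome c, fell from 53.7 and 51.4 to 28.9 and 30.5 CPM (log2 fold change -0.82, SE 0.0533, edgeR adjusted p 7.66e-16). Htra2, a released mitochondrial protease, fell by 0.59 (SE 0.0447) on the log2 scale, with 43.7% of its exon length overlapping Loxl3 and Aup1 on the opposite strand. The outer membrane channels Vdac1 and Vdac2 each fell by 0.39 (SE 0.0307 and 0.0312), and the death receptor Tnfrsf10b fell by 0.60 (SE 0.0537).

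With 4-PBA 2 of the 29 were called, both lower, with a list median of -4.5e-04. This share, 6.9%, is near the background, in which 4.90% of all tested genes were called and 2.78% called lower. Cflar, which encodes the caspase-8 inhibitor c-FLIP, stood at 85.8 and 90.2 CPM with 4-PBA against 100.01 and 94.7 CPM with DMSO (log2 fold change -0.14, SE 0.0387, edgeR adjusted p 0.0209). Birc6, a giant IAP, stood at 219 and 216 CPM against 239 and 229 CPM (log2 fold change -0.11, SE 0.0319, edgeR adjusted p 0.0402). Cflar was not called without DMSO replicate 1 (adjusted p 0.117), 4-PBA replicate 1 (0.362) or 4-PBA replicate 2 (0.0552). Birc6 was not called with library size only, DESeq2, a fit of the 4 libraries, the replicate block, or without any 1 library other than DMSO replicate 2.

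Because Bax, Bbc3 and Pmaip1 are known p53 targets, 24 other p53 regulators and targets were examined, of which 22 were tested. Between DMSO and day 0, 12 rose and 8 fell, against 33.8% of all tested genes called higher and 32.6% lower. In all, 20 of 22 were called, against 66.3% of all genes, with a list median of 0.19. Eda2r, a TNF receptor family member, rose from 28.2 and 29.6 to 98.1 and 108 CPM (log2 fold change 1.83, SE 0.0485, edgeR adjusted p 4.83e-26). Cdkn1a, the cell cycle inhibitor p21, rose by 1.99 (SE 0.0377) and the kinase gene Plk2 by 1.16 (SE 0.0383) on the log2 scale. Exons of Cdkn1a overlap another gene on the opposite strand over 7.68% of their length. Trp63, a p53 relative, rose from 0.247 and 0.171 to 8.57 and 8.63 CPM (log2 fold change 5.40, SE 0.207). Trp53 itself fell from 168 and 170 to 121 and 116 CPM (log2 fold change -0.51, SE 0.0345, edgeR adjusted p 2.30e-15). The others that fell were Pidd1 (log2 fold change -1.57), Tigar (-0.54), Zmat3 (-0.30), Aen (-0.28), Mdm2 (-0.24), Plk3 (-0.22) and Ccng1 (-0.18).

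With 4-PBA 5 of the 22 p53 pathway genes were called, all lower, against 2.78% of all tested genes called lower. The list was chosen with earlier results of these data known, so this share is no test. Mdm2, which encodes the ubiquitin ligase for p53, stood at 131 and 129 CPM against 144 and 151 CPM with DMSO (log2 fold change -0.18, SE 0.0342, edgeR adjusted p 7.47e-04). The others were Eda2r (log2 fold change -0.21, edgeR adjusted p 0.00295), Cdkn1a (-0.16, 0.00962), Plk2 (-0.16, 0.0115) and Sesn2 (-0.26, 0.0253). Mdm2 kept its call without any 1 library. Eda2r was not called without DMSO replicate 2 or 4-PBA replicate 2 (adjusted p 0.0744 and 0.0977). Cdkn1a was not called without 4-PBA replicate 1 (adjusted p 0.163). Plk2 was not called without DMSO replicate 1, DMSO replicate 2 or 4-PBA replicate 2 (adjusted p 0.0501, 0.0934 and 0.395). Sesn2 was not called without DMSO replicate 1 or 4-PBA replicate 1 (adjusted p 0.287 and 0.382), nor with DESeq2 or limma-voom (0.0599 and 0.0516).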

How the data were processed

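The authors deposited raw counts per gene symbol, not normalised, in which each library has a column named in the labels. Libraries were made with a directional kit from DNase-treated total RNA, per the labels' protocols, and GRCm39 is the genome build in the submitters' processing notes. The aligner, counter, annotation and strand setting are not given in the sources used here. The analysis used edgeR 4.0.16 (R 4.3.3): filterByExpr, TMM scaling, 1 mean per group over all 6 libraries (3 residual degrees of freedom, median prior degrees of freedom 30.4), robust glmQLFit and its quasi-likelihood F test, adjusted by Benjamini-Hochberg over 17433 genes. The SE is the size of the log2 fold change over the root of F. The biological coefficient of variation was 3.74% and totals were at least 47908926 counts. Counting error adds to this spread, most for genes of low count. Replicates differed by more than sampling noise (chi-square per degree of freedom 3.88 to 7.04). All libraries carry batch 1. The alternatives were other scalings, filters and thresholds, DESeq2 1.42.0, limma-voom (limma 3.58.1), fits of 4 libraries, a replicate block and leaving out each library. The scripts were tested on simulated data.

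The members and lists were chosen with earlier results of these data known, so their shares beside all tested genes are no test. Named were the 10 members and, per list, the 5 called genes with the smallest adjusted p between DMSO and day 0 and between 4-PBA and DMSO. Of the p53 list, all genes called lower between DMSO and day 0 were named as well. Exon lengths and overlaps came from GENCODE M21, an annotation of GRCm38, matched by symbol for 81 of 81 genes. Upstream sequences came from RefSeq on GRCm38.p6, and the 4 motifs searched in them were added after the expression results were seen. Figures were drawn with matplotlib 3.10.9.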

Additional observations from a re-analysis of the deposited data

How the results depend on the processing

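With 2 libraries a group, the tests borrow their spread from all genes, and when 1 library was left out the lone library was assumed to vary like the others. Member calls between DMSO and day 0 numbered 9 under each alternative except a minimum change of 1.5-fold. That minimum left 3 members, 2 other family genes, 7 caspase-list genes, 9 p53 genes and 6099 genes in all between DMSO and day 0, and 3, 1, 6, 10 and 5972 between 4-PBA and day 0. Between 4-PBA and DMSO it left 0, 0, 0, 0 and 59; edgeR without it called 1, 1, 2, 5 and 855, and 4 members, 2 other family, 2 caspase-list and 11 p53 genes had an unadjusted p under 0.05. At an adjusted p under 0.01 there were 0 other family genes, 0 caspase-list genes, 3 p53 genes and 424 genes in all, and Bcl2l1 was still called. With 1 library left out the counts were 1 to 2 members, 0 to 1 other family genes, 0 to 2 caspase-list genes, 3 to 5 p53 genes and 295 to 1194 genes in all. The lowest total came without 4-PBA replicate 2, and without 4-PBA replicate 1 it was 341. The caspase-list count was 1 with library size only, with DESeq2, with the 4 libraries compared and with the replicate block. Members whose sign changed between 4-PBA and DMSO were Bcl2 (0.0063 with library size only, 1.7e-04 with DESeq2, -0.052 to 0.050 with 1 library left out, 0.019 of these without 4-PBA replicate 1), Bax (-0.0082 to 0.014 with 1 library left out, -0.0081 of these without DMSO replicate 1), Pmaip1 (-0.095 without DMSO replicate 1 to 0.025 without DMSO replicate 2) and Bad (-0.095 without 4-PBA replicate 2 to 0.061 without 4-PBA replicate 1). The cause was not tested. Same-numbered libraries showed no shared deviation (correlations across genes of -0.028, -0.0031 and -0.012). With 2 libraries a group, 1 correlation per pair of groups cannot tell whether libraries were handled in pairs. The replicate block left 768 calls in all between 4-PBA and DMSO and changed no member's call; Bcl2l1 then stood at -0.27 with an adjusted p of 0.00104.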

Other observations

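Within the caspase, IAP and death receptor list, 4 genes outside the naming rule are given here, chosen after their values were seen. Birc5, which encodes survivin, an IAP with a role in mitosis, fell from 117 CPM in each day 0 library to 29.3 and 22.4 CPM with DMSO (log2 fold change -2.18, SE 0.121, edgeR adjusted p 3.05e-05), beside the fall of the cycling markers. Genes of the list that rose with DMSO included the death receptor Fas (log2 fold change 1.14, SE 0.174) and the IAPs Naip2 (0.85, SE 0.125) and Birc2 (0.30, SE 0.0686). Fas stayed low, at 4.01 and 4.11 CPM with DMSO against 1.54 and 2.09 CPM at day 0, and its ligand Fasl had at most 8 counts in any library. None of these 4 genes was called between 4-PBA and DMSO by edgeR, where their adjusted p-values lay between 0.583 and 0.908.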
